A study of Homo sapiens with 5 samples.

Results

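ACTL6A peaks at promoters that shared no base with a BRG1 peak were examined in SNU638, an established human gastric cancer cell line. The peaks were chosen by their calls alone. An ACTL6A peak had to lie no more than 1 kb from a transcriptional start site (TSS), taken as the first base of any protein-coding transcript of GENCODE release 44, and to overlap no BRG1 peak and no peak of the second IgG library. Of 23917 ACTL6A peaks, 7246 lay at a promoter and 932 of those (12.9%, Wilson 95% interval 12.1% to 13.7%) met the rule, 73 with an overlapping NRF2 peak and 859 without one. A further 6301 ACTL6A promoter peaks overlapped BRG1 and serve as the comparison here.

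Binding in SNU638 cells was profiled by CUT&Tag, in which a protein A and Tn5 transposase fusion tethered by an antibody inserts sequencing adapters into nearby DNA. Single libraries made with anti-ACTL6A, anti-BRG1 or anti-NRF2 were used, together with a pair made with IgG (IgG 1 and IgG 2). All came from the same line, and no treatment or genotype is named in the labels. Each antibody had 1 library, so replicate error is unknown and no p-value is given. The intervals printed are Wilson 95% intervals unless named otherwise, and they reflect counting error alone, with each peak taken as an independent draw. The lists held 48793 BRG1, 9045 NRF2, 11 IgG 1 and 1746 IgG 2 peaks. Of the 932 members, 0 overlapped an IgG 1 peak, which allows a share of up to 0.322%. Here and below, the limit for a count of 0 is 3 over the number counted. With so short a list, 0 of all 7246 ACTL6A promoter peaks overlapped IgG 1, so this count is not particular to members. Within 10 kb of an IgG 2 peak lay 4 members (0.429%), against 0.254% of promoter peaks with BRG1. A list of peaks carries no expression data, so the identity of the line could not be checked against marker genes.

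ACTL6A (BAF53A) is an actin-related protein that is a subunit of the SWI/SNF (BAF) remodelling complexes and also of the INO80 and TIP60 complexes. BRG1, encoded by SMARCA4, is an ATPase of SWI/SNF, and its close relative BRM, encoded by SMARCA2, can take its place. NRF2 is a transcription factor of the antioxidant response that binds the antioxidant response element (ARE) together with a small MAF protein. A BRG1 peak that is missing from a list is not a measured absence of the protein, since the lists hold only calls at a q-value below 0.05.

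The sequences below are stretches of 8 member peaks from the named genes, picked by hand after their values were seen as examples with and without BRG1 at the gene, and read from GRCh38 on the strand of the gene, 5′ to 3′, and limited to bases outside untranslated regions. Capitals mark matches, on either strand, to any of 12 transcription factor motifs. The first 4 come from promoters where no BRG1 peak lay within 1 kb of any TSS of the gene and no NRF2 peak overlapped. They are the 4 with the highest −log10 q in that set whose peak covered the TSS or lay within 14 bp of it. Members of FCMR and LGR6, in the same set, had a higher −log10 q (9.20 and 6.48) than some of these but lay 799 and 786 bp from the TSS. CENPW (chr6:126339995-126340114, + strand) has a CRE and a pair of SP/KLF boxes. RRAGB (chrX:55717543-55717662, + strand) has a pair of SP/KLF boxes and an E-box. C1D (chr2:68062825-68062944, − strand) has no match, and COX7C (chr5:86617806-86617925, + strand) has 1 ZNF143 core.
CENPW: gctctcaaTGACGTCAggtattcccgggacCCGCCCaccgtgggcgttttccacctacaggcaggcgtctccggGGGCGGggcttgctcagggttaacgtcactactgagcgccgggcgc
RRAGB: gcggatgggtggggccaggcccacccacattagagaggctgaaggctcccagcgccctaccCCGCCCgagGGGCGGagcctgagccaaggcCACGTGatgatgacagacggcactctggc
C1D: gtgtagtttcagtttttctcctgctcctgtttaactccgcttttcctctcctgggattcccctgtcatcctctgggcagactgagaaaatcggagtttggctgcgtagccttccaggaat
COX7C: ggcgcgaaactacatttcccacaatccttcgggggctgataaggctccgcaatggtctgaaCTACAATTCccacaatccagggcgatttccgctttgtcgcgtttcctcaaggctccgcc

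The next 4 come from peaks that stood beside a separate BRG1 peak at the same promoter. The member peaks of ZNF181 (chr19:34733865-34733984, + strand), COX7A2 (chr6:75244010-75244060, − strand) and PNISR (chr6:99424837-99424956, − strand) also overlapped an NRF2 peak, and that of GORASP2 (chr2:170930335-170930454, + strand) did not. The PNISR stretch itself lies outside the NRF2 peak (chr6:99425083-99426019). That NRF2 peak meets only the edge of the member, which ends at 99425084. Only the PNISR stretch holds a match, 1 SP/KLF box.
ZNF181: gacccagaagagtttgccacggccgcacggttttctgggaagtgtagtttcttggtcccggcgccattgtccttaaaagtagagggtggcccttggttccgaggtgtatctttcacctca
COX7A2: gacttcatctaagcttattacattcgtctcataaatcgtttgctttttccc
PNISR: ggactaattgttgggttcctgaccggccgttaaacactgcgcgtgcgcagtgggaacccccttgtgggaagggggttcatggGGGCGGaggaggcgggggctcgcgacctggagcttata
GORASP2: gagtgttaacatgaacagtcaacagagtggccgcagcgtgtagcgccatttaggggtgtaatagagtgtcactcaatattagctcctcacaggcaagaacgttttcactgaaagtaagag

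Most members were weak peaks. The number of fragments at each ACTL6A summit was worked back from the deposited fold enrichment with its p-value. Members had a median of 5 fragments (lowest 3, quartiles 4 and 7, highest 25), and ACTL6A promoter peaks with BRG1 had a median of 10. Distal ACTL6A peaks without BRG1 had a median of 4. Of the members, 524 (56.2%, 53.0% to 59.4%) had 5 fragments or fewer, against 10.3% (9.57% to 11.1%) of promoter peaks with BRG1. The caller's median fold enrichment was 4.23 for members and 6.63 with BRG1, and the median −log10 q was 2.36 and 6.41. The upper quartile of the members' −log10 q, 3.12, lay below the lower quartile with BRG1, 3.89. A −log10 q of 5 was reached by 55 members (5.90%) and by 62.5% of peaks with BRG1, so the groups overlapped only in part.

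The share of ACTL6A promoter peaks without BRG1 thus depended on how strong the ACTL6A peak was. It was 44.6% (41.8% to 47.5%) among peaks with 3 to 5 fragments and 14.0% (12.8% to 15.4%) among those with 6 to 9. Of 3456 peaks with 10 fragments or more, 41 (1.19%, 0.876% to 1.61%) were members, and of 806 with 20 or more, 2 were. When the ACTL6A −log10 q had to reach 5, 55 peaks or 1.38% met the rule. The rule was also sensitive to what counts as overlap. When BRG1 had to cover at least 50% of the ACTL6A peak and the reverse, 4051 promoter peaks (55.9%) had no such BRG1 peak.

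Members differed from peaks with BRG1 in their position by more than counting error. Position is tied to the rule, which removes ACTL6A peaks wherever BRG1 peaks lie, and it is given as a description. A TSS lay inside 171 members (18.3%) and inside 56.4% (55.2% to 57.7%) of promoter peaks with BRG1. Because weak peaks are narrow, the comparison was repeated with the peaks with BRG1 weighted to the fragment numbers of the members, which gave 42.3%. The median width was then 185 bp for members and 206 bp with BRG1. Peaks within 250 bp of the TSS made up 46.5% (43.3% to 49.7%) of members, against 87.1% with BRG1 and 80.2% after weighting. Members lay less often than peaks with BRG1 near a canonical TSS, the main one of a gene, here of any gene. Within 1 kb of a canonical TSS lay 64.8% (61.7% to 67.8%) of members, against 91.2% with BRG1.

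Members were spread to both sides of the TSS, and more of them downstream. The summit lay more than 250 bp downstream of the TSS in 353 members (37.9%, 34.8% to 41.0%) and in 9.89% of peaks with BRG1, or 16.2% after weighting. More than 250 bp upstream lay 240 members (25.8%) and 14.6% of peaks with BRG1, or 14.2% after weighting. The summit lay upstream of the TSS in 43.6% of members and in 66.5% with BRG1. An intron held 468 member summits (50.2%), a coding exon 113 (12.1%) and an untranslated region 141 (15.1%), and 210 (22.5%) lay outside protein-coding transcripts. With BRG1, the corresponding shares were 27.7%, 4.48%, 24.3% and 43.5%. A TSS on the opposite strand within 1 kb, the arrangement of a bidirectional promoter, was found at 6.22% of members and 16.1% of peaks with BRG1, or 11.1% after weighting.

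ACTL6A summits outside BRG1 peaks were nevertheless denser at promoters than elsewhere. They numbered 13.5 per Mb of promoter sequence (Poisson 95% interval 12.6 to 14.4) and 3.84 per Mb (3.77 to 3.91) elsewhere, a ratio of 3.52. The count leaves out bases inside BRG1 or IgG 2 peaks and places each peak by its summit, so 877 summits enter. At promoters of genes with no BRG1 peak the density was 12.8 per Mb (11.4 to 14.4). Open chromatin was not measured, and its part in this ratio was not tested.

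At 67.0% of members a BRG1 peak lay at a TSS of the nearest gene, near the 63.5% of all protein-coding genes with such a peak. A separate BRG1 peak lay within 1 kb of the same TSS for 438 members (47.0%, 43.8% to 50.2%). Another 186 belonged to genes with BRG1 at a different TSS only, and 308 to genes with no BRG1 peak at any TSS. The distance from a member to the nearest BRG1 peak ranged from 1 bp to 3908712 bp with a median of 1695 bp. Within 100 bp lay 10.7% of members, within 250 bp 24.0%, and farther than 10 kb 27.6%. The bound between overlap and no overlap was thin. CUL2, which encodes a cullin scaffold of ubiquitin ligases, and GCFC2 had members 1 bp from a BRG1 peak, with 4 and 6 fragments. On the other side, the peaks at DMBX1 and NCF1 shared 1 bp with BRG1 and had 6 and 4 fragments. In all, 64 members lay within 50 bp of BRG1, and 116 promoter peaks with BRG1 shared under 50 bp. At the 1 kb bound, E2F1 and RASGEF1C had members 1000 and 998 bp from the TSS, and peaks at SLIT1 and CCDC3 fell just outside at 1004 and 1005 bp.

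**Figure D1:**
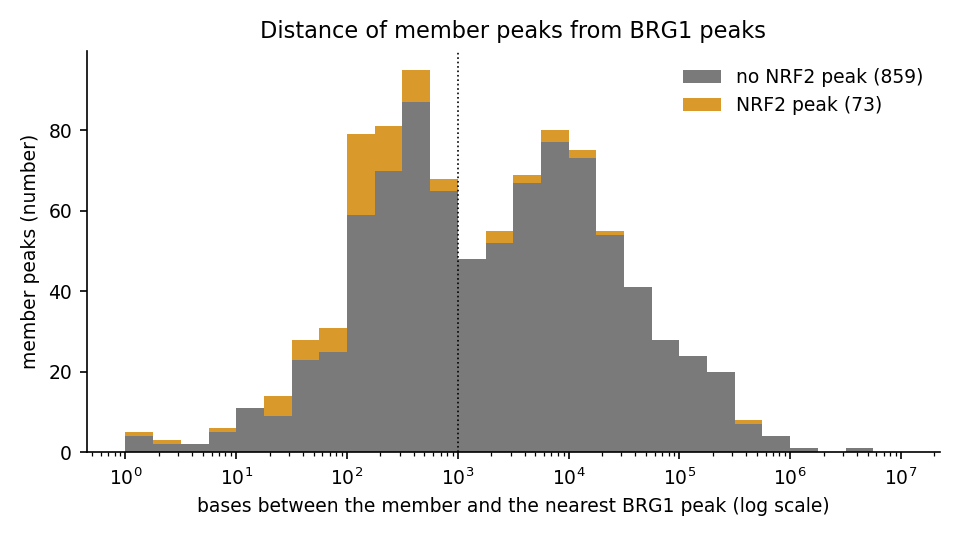
The number of members (y axis) is plotted by the bases between the member and the nearest BRG1 peak (x axis, log scale), with and without an overlapping NRF2 peak stacked. The dotted line marks 1 kb, and members with NRF2 have a median distance of 164 bp, against 2359 bp without.

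Where the 2 proteins had separate peaks at 1 promoter, the BRG1 summit was more often the nearer to the TSS. The rule itself bears on this, since a member cannot lie over the TSS where BRG1 covers it, so the values are a description only. The BRG1 peak taken was the nearest to the member, which need not be the one at that TSS. The median gap between the peaks was 240.5 bp. Of the 438 members, 268 (61.2%) had their summit farther from the TSS than the BRG1 summit, and the median distances to the TSS were 434.5 bp for the member and 260.5 bp for BRG1. The BRG1 peak covered the TSS in 193 cases (44.1%). These BRG1 peaks had a median of 15 fragments, against 28 for those that overlapped an ACTL6A promoter peak. An ACTL6A peak of their own lay over 91 (20.8%) of them. At SRCAP, which encodes the ATPase of a complex related to TIP60, the member (chr16:30699153-30699292) had 6 ACTL6A fragments and stood 39 bp from a BRG1 peak of 41 fragments.

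NRF2 peaks overlapped 73 members (7.83%, 6.28% to 9.74%), against 54.1% (52.9% to 55.3%) of promoter peaks with BRG1 and 30.5% of those after weighting by fragments. Among peaks with 3 to 5 fragments, 4.01% of members and 26.5% of peaks with BRG1 had NRF2. With 6 to 9 fragments the shares were 11.4% and 39.8%, and with 10 or more 24.4% and 68.8%. The share was lower in members at every fragment number from 3 to 15, although the numbers above 10 rest on at most 6 members each. Requiring an NRF2 −log10 q of at least 5 left 4.08% of members with NRF2. When 50% of the NRF2 peak and of the member had to be shared, 1.18% remained.

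The members with NRF2 were mostly those beside BRG1. Of the 73, 60 (82.2%, 71.9% to 89.3%) had a separate BRG1 peak at the same promoter, against 378 of the 859 without NRF2 (40.7% to 47.3%). Conversely, NRF2 overlapped 13.7% (10.8% to 17.2%) of the members beside BRG1 and 2.27% (1.11% to 4.62%) of those at genes with no BRG1 peak. The NRF2 peaks were broad, with a median width of 582 bp and 17 fragments, and 53 of the 73 (72.6%) also overlapped a BRG1 peak elsewhere along their length. The median distance between the NRF2 and ACTL6A summits was 237 bp at members and 129 bp at promoter peaks with BRG1. Members with NRF2 were also stronger, with a median of 6 fragments against 5, and 41.1% (30.5% to 52.6%) were rich in CpG, against 22.1% (19.5% to 25.0%) of the members without NRF2.

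The highest members with NRF2 show this range. FOSB, which encodes a subunit of the AP-1 factor, had the highest (chr19:45469936-45470721, 23 ACTL6A fragments with 2.57 expected, fold enrichment 6.71, −log10 q 10.9). Its NRF2 peak had 27 fragments, and the nearest BRG1 peak was 2379 bp away with 12. ZNF181, a zinc finger gene, followed with 11 ACTL6A and 17 NRF2 fragments, and COX7A2, a subunit gene of cytochrome c oxidase, with 9 and 9. Their nearest BRG1 peaks, of 20 and 10 fragments, were 62 and 67 bp away. Fragment numbers were not scaled between libraries, so equal numbers do not mean equal enrichment. At COX7A2 the fold enrichment was 6.76 for ACTL6A (−log10 q 6.29) and 4.03 for NRF2 (−log10 q 2.40). PNISR, whose intronic sequence is shown above, had 9 ACTL6A and 18 NRF2 fragments 51 bp from BRG1. Its NRF2 peak met only the edge of the member. FBXL17 (an F-box gene), POLR1H (a subunit of RNA polymerase I), RAB11A (a GTPase of recycling endosomes), UIMC1 (a ubiquitin-binding partner of BRCA1) and TOR1A (torsin A) had 6 to 9 ACTL6A fragments and a BRG1 peak 133 to 692 bp away. CPN2, a subunit gene of carboxypeptidase N, had 9 ACTL6A fragments and was the only one of these 10 genes with no BRG1 peak at any TSS, the nearest being 16769 bp away.

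Without NRF2 the strongest peaks were found both beside BRG1 and far from it. At CENPW, which encodes a centromere protein, the peak (chr6:126339952-126340205) covered the TSS with 14 fragments where 0.449 were expected (fold enrichment 10.4, −log10 q 13.3). It was the highest member, at rank 1660 of the ACTL6A list, and the nearest BRG1 peak was 159114 bp away. GORASP2, a Golgi stacking protein gene, had 15 fragments in an intron 985 bp from the TSS, with a BRG1 peak of 49 fragments 826 bp away. HBP1, which encodes an HMG-box repressor, had 19 fragments over the TSS and a BRG1 peak 118 bp away. CYP27B1, DUSP22 and PPFIBP2 had 14, 12 and 12 fragments with BRG1 185, 159 and 242 bp away. WDR74, a ribosome assembly factor gene, had the most fragments of any member, 25, where 4.24 were expected, so its fold enrichment was 4.97. TMEM120B had 14 fragments and its nearest BRG1 peak at 2122 bp.

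Of the 7177 genes with no BRG1 peak at any TSS, 4.50% had a member, near the 4.98% of all genes. Besides CENPW, the 10 highest members there included FCMR (13 fragments), the IgM Fc receptor gene, 799 bp upstream of its TSS. RRAGB, which encodes a GTPase of amino acid sensing, had 9 fragments over its TSS and no BRG1 peak for 229934 bp. C1D, a cofactor gene of the RNA exosome, had 7 fragments where 0.202 were expected, 38405 bp from BRG1. COX7C, another subunit gene of cytochrome c oxidase, had 7 fragments 48061 bp from BRG1. ESF1 (pre-rRNA processing) had 8 fragments and TSHR (the thyrotropin receptor) 6, both over the TSS, 145641 and 13534 bp from BRG1. RPS20, a ribosomal protein gene, had 9 fragments 43 bp from its TSS, 3924 bp from BRG1. LGR6, an R-spondin receptor gene, had 16 fragments in an intron. CT45A10 belongs to a family of near-identical copies, so its 7 fragments may be misplaced among them. These 308 members were weaker than the rest, with a median of 4 fragments against 6 for members beside BRG1, and 4 of them had 10 or more.

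The sequence under the members was poorer in CpG than under peaks with BRG1. Their median GC content was 59.4% (order-statistic 95% interval 58.9% to 60.0%), against 62.8% with BRG1 and 55.9% for distal ACTL6A peaks without BRG1. The observed to expected CpG ratio in 200 bp around the summit had a median of 0.418 in members, 0.751 with BRG1 and 0.705 with BRG1 after weighting. Distal peaks without BRG1 had lower ratios than members. Windows with a CpG ratio of at least 0.6 and a GC content of at least 55% made up 23.6% (21.0% to 26.4%) of members, 71.4% of peaks with BRG1 and 62.0% after weighting.

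The SP/KLF box and the ETS core followed the same order, and the CCAAT box did not. The SP/KLF box (GGGCGG), searched on both strands in the 200 bp window, was found in 187 members (20.1%, 17.6% to 22.8%), 53.5% of peaks with BRG1 (43.1% after weighting), 7.25% of distal peaks without BRG1 and 53.9% of the windows around all gene starts. The ETS core (CCGGAAG) was found in 31 members (3.33%, 2.35% to 4.68%), 12.0% with BRG1 (10.1% after weighting), 0.880% of distal peaks without BRG1 and 11.2% of gene starts. The CCAAT box (CCAAT) was found in 140 members (12.9% to 17.5%), 32.9% with BRG1 (21.2% after weighting) and 25.2% of gene starts, but in 18.5% (17.8% to 19.2%) of distal peaks without BRG1, above the members. The NRF1 core (CGCATGCG) was in 2 members (0.215%), 3.08% of peaks with BRG1 and 0.0825% of distal peaks without BRG1. The CTCF core (CAGGGGGCG) and ZNF143 core (CTACAANTC) were in 3 members each (0.322%). With BRG1 their shares were 2.19% and 2.33%, and in distal peaks without BRG1 0.248% and 0.293%. These cores also followed the order, but on very few members. Windows of gene starts were centred on a TSS, while 46.5% of members lay within 250 bp of one. The weighting matched fragment numbers and not position. The part of position in these motif shares and in the CpG ratios was not tested.

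The ARE core (TGACNNNGC) differed little between the groups. It was found in 99 members (10.6%, 8.80% to 12.8%), 10.1% of peaks with BRG1, 8.86% of distal peaks without BRG1 and 9.97% of gene starts, so members were near the share of gene starts. Members with NRF2 had it in 12.3% and those without in 10.5%. The AP-1 site (TGANTCA), which holds part of some ARE sequences, was in 4.40% of members and in 8.22% of the 73 with NRF2. The remaining motifs were the YY1 core (AAGATGG) in 3.11%, the E-box (CACGTG) in 4.29%, the CRE (TGACGTCA) in 0.966% and the TATA box (TATAAA) in 2.58% of members, against 5.31%, 5.61%, 2.04% and 6.62% of gene starts. For the YY1 core, E-box, CRE and TATA box, the shares with BRG1 were 4.57%, 7.17%, 1.71% and 1.49% before weighting. In distal peaks without BRG1 they were 3.27%, 3.77%, 0.0458% and 3.08%. Before weighting, the E-box and CRE lay between these groups in members, with the highest share in peaks with BRG1. The YY1 core and TATA box did not follow that order. After weighting, the shares with BRG1 were 6.43% for the E-box and 0.960% for the CRE. The CRE, in 9 members, then no longer lay between the groups. For the E-box, the members' interval (3.17% to 5.79%) included the share of distal peaks. A match is a description of letters and not of a bound site.

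By gene, 981 of 19689 protein-coding genes (4.98%) had a member at a TSS. Those with an NRF2 peak over the member numbered 89 (0.452%), and 323 (1.64%) had a member and no BRG1 peak at any TSS. Some genes had several, among them IL15RA and SEPTIN9 with 3 each at different start sites, a pair chosen after their values were seen. A BRG1 peak lay at a TSS of 67.1% of the member genes and of 63.5% of all genes. For 233 member genes (23.8%), another ACTL6A peak with BRG1 lay at a TSS of the gene.

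Gene lists showed little spread in members. Across 20 lists the share of genes with a member ranged from 0% to 8.89%, around the 4.98% of all genes, while the share with an ACTL6A peak overlapping BRG1 ranged from 0.512% to 73.9%. Among genes of the ACTL6A complexes, 1 of 29 SWI/SNF genes, 0 of 15 INO80 genes (up to 20.0% with such a count) and 1 of 18 TIP60 and SRCAP genes had a member, against 15, 11 and 10 with an ACTL6A peak with BRG1. The SWI/SNF gene was SMARCA2, the BRM gene named above, whose member (chr9:2076441-2076638) had 4 fragments at an internal start site, 59471 bp from BRG1. Of the 32 genes of the NRF2 list 0 had a member, which allows a share of up to 9.38%, and 13 had an ACTL6A peak with BRG1.

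Housekeeping lists, in which more than 55% of genes had an ACTL6A peak with BRG1, had member shares on both sides of the 4.98% of all genes. The highest of the 20 lists were 4 of 45 Mediator and RNA polymerase II genes (8.89%), 3 of 34 aminoacyl-tRNA synthetase genes (8.82%) and 7 of 86 cytosolic ribosomal protein genes (8.14%), each resting on a few genes. Respiratory chain genes had 5 of 90 (5.56%) and splicing genes 1 of 62 (1.61%). Of 69 replication-dependent histone genes, 3 (4.35%) had a member, near the share of all genes. All 3 had an NRF2 peak over it, against 89 of the 981 member genes. Genes and not peaks were counted, so 1 peak can serve more than 1 of them, and the count is too small to read further. Zinc finger genes had members at 24 of 556 and solute carriers at 20 of 374. Genes of olfactory receptors, which detect odorants in the nasal epithelium, had members at 15 of 391 genes (3.84%), near the 4.98% of all genes. Of the 15, 14 had no BRG1 peak at the gene, against 323 of all 981 member genes. The share of the whole list without BRG1 was not counted. An ACTL6A peak with BRG1 lay at 2 genes of the list (0.512%). The olfactory receptor list was the only one with more member genes than genes with an ACTL6A peak overlapping BRG1.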

How the data were processed

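CUT&Tag peak lists of SNU638 cells were used, 1 library each for ACTL6A, BRG1 and NRF2 and 2 for IgG. Reads were paired-end (150 bp). The authors aligned them to hg38 using BWA, and MACS2 peaks with q-values under 0.05 were deposited. The submitters' processing notes also name fastp 0.23.0, FastQC, deepTools and HOMER 4.11. The control given to the caller is not given in the sources used here. For every peak the authors deposited a score (10 times the −log10 q, rounded down), a fold enrichment (a ratio with a pseudocount of 1), and −log10 p and q. These are the authors' values and were not compared between lists. Read depth is unknown from the lists. The lowest expected number of fragments recovered at a peak was 0.182 for ACTL6A and 0.271 for BRG1. It was 1.48 for NRF2 and 1.23 for IgG 2, and the cause of this difference between lists was not tested. The paper's reporting summary gives clean reads for ACTL6A, BRG1, NRF2 and IgG, with the fewest for ACTL6A. Those depths were not used here.

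The members and all lists were chosen with earlier results of these data known. Positions were counted from 1 on GRCh38, the build of the lists, with GENCODE release 44, and 0 peaks lay off the main chromosomes. An overlap was 1 shared bp or more, and IgG 1 took no part in the rule. Fragments at a summit are the whole number matching the fold and the p-value under a Poisson model (tolerance 0.001 in −log10 p), found for all but 1 of 23917 ACTL6A peaks. For weighting, fragment numbers of 15 and above were pooled. CpG ratio is CpG count times length over the product of C and G counts. Named genes were the 10 members with the highest −log10 q with NRF2, without NRF2 and with no BRG1 peak at the gene, members at SWI/SNF, INO80, TIP60, SRCAP and NRF2 list genes, and the peaks nearest each bound. Alternatives used a −log10 q minimum of 5, other TSS distances, 1 TSS per gene, other uses of IgG, BRG1 and NRF2 overlap rules and motif forms. The weighting, the limit of 10 fragments and the GC content at genes without BRG1 were chosen after seeing the data. On simulated data a planted overlap of 30.0% was found as 30.0%, 500 of 500 planted motifs were found and 99.98% of 5000 fragment numbers were recovered. Software was samtools 1.23.1, pysam 0.24.0, pandas 2.3.3, NumPy 2.4.6, SciPy 1.17.1, matplotlib 3.10.9 and Python 3.11.15. Repeat annotation, gene expression and the study's ChIP-qPCR were not analysed here.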

Additional observations from a re-analysis of the deposited data

How the results depend on the processing

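Over 9 results and their alternatives, 47 of 83 values stayed within the interval of the value reported, or within 1.5 times for counts, and 36 moved. Among the 47 are 9 from leaving out IgG 1, which could not move because the rule does not use that library. The number of members and their share of ACTL6A promoter peaks were 55 and 1.38% at an ACTL6A −log10 q of at least 5, 433 and 7.30% with TSS within 250 bp, 1557 and 18.3% within 3 kb, 604 and 9.49% with 1 TSS per gene, 509 and 7.02% when BRG1 within 1 kb barred membership, and 4051 and 55.9% with 50% reciprocal overlap. The share alone moved to 17.1% when BRG1 peaks needed a −log10 q of 5 and to 1.19% at 10 fragments or more. The share with NRF2 was 10.9% with 1 TSS per gene, 41.1% with 50% reciprocal BRG1 overlap, 1.18% with that overlap for NRF2, 2.36% without BRG1 within 1 kb, 4.08% at an NRF2 −log10 q of at least 5, and 5.46% within 3 kb. The share with BRG1 at the same promoter was 54.5% at the higher ACTL6A limit, 58.6% with 1 TSS per gene, 87.8% with 50% reciprocal overlap, 34.2% at the BRG1 limit, 4.91% without BRG1 within 1 kb, 25.6% within 250 bp and 52.1% within 3 kb. The ACTL6A limit gave a median of 9 fragments, a GC content of 58.1%, an ETS share of 1.82% and 7 listed genes. GC content was 60.5% at genes without BRG1, the ETS share was 4.85% within 250 bp, and the looser TGANNNNGC was in 33.6% of windows. Listed genes with a member numbered 64 within 250 bp and 53 without BRG1 within 1 kb. Fewer or more peaks follow from each rule's own construction, and other causes were not tested. Leaving out either IgG library gave 932 to 935 members. No paired analysis was possible because no antibody was replicated. Median peaks of 5 fragments limit how firmly any single member is placed.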
